A study of Mus musculus with 12 samples.

Results

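The T cell receptor signalling machinery was followed here as 43 genes, listed by symbol and matched through GENCODE mouse release M21 to rows of both deposited count tables, each of which holds 55487 gene identifiers. The list covers the CD3 and zeta chains with the CD8 co-receptor (6 genes), the proximal kinases with the phosphatase CD45 (4), adaptors and effectors (8), PKC-theta with the NF-kB arm (8), NFAT and AP-1 factors (5), negative regulators (11) and the activation marker Cd69 (1). All 43 were found and all 43 passed the filter on low counts in both comparisons.

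The cells were mouse OT-1 CD8+ T cells. OT-1 animals carry a transgenic T cell receptor for an ovalbumin peptide shown on MHC class I, so all 4 groups share that receptor. Female and Male were cells from spleen of each sex, held for 3 days with beads against CD3 and CD28 and with IL2. WT and KD were another batch, of male cells that were electroporated and then cultured for 3 days: KD were given Cas9 together with guide RNA that targets Kdm5d, a Y-linked histone demethylase, and WT guide RNA with no Cas9. Effects of Cas9 and of Kdm5d loss therefore cannot be told apart in KD against WT. The labels give 3 samples per group, 12 in all, without the age of the animals or the number of mice, so p-values measure the spread between these samples, which may be technical.

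When a peptide on MHC engages the receptor, Lck, brought in by CD8, phosphorylates the CD3 and zeta chains, and Zap70 docks there and phosphorylates the scaffold proteins LAT and SLP-76. From that scaffold, phospholipase C gamma 1 opens the calcium route to NFAT, RasGRP1 and SOS1 open the Ras route to AP-1, and PKC-theta acts through BCL10 and MALT1 on NF-kB. Csk, phosphatases, ubiquitin ligases and diacylglycerol kinases restrain these steps, and the RNAs of several components, such as Cd69, Nfkbia and Fos, are themselves induced by the signal.

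Total counts per sample ranged from 78748647 to 110803318. Kdm5d was at 0 to 2 counts in Female, between 49.5 and 52.2 counts per 1000000 (CPM, on TMM-scaled library sizes) in Male, between 48.4 and 52.4 CPM in WT and between 21.4 and 22.9 CPM in KD. Markers of CD8 T cells summed to between 1389 and 1768 CPM per sample. Of the markers of other cells, Cd4 reached at most 0.201 CPM and Ms4a1 was at 0 in every sample. The 3-gene list for gamma-delta T cells, which CD8 cells can also transcribe, summed to 144 to 145 CPM in Female, 168 to 178 in Male, 264 to 267 in WT and 299 to 310 in KD. The CD4 list summed to 87.2 to 89.6 CPM in Female, 53.9 to 57.3 in Male, 43.3 to 45.9 in WT and 39.9 to 42.6 in KD, nearly all of it Zbtb7b. Markers of B cells summed to at most 6.49 CPM, of NK cells to 3.48, of red cells and platelets to 1.19 and of myeloid cells to 1.07. Their part in the results was not tested.

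Across the 43 genes, 13 were higher and 25 lower in Male than in Female, and 5 were not called, at an adjusted p under 0.05 in edgeR's quasi-likelihood test with Benjamini-Hochberg adjustment over all genes tested. Over the 20208 genes tested, 49.8% were called, 23.5% higher and 26.3% lower. In KD against WT, 3 were higher, 32 lower and 8 not called. There, of 20413 genes tested, 35.1% were called, 16.8% higher and 18.4% lower. The median log2 fold change of the 43 genes was -0.13 in Male against Female and -0.21 in KD against WT, beside medians of 0.011 and 0.012 over all genes tested.

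The differences were small for most of the 43 genes. Past an absolute log2 fold change of 0.5 stood 8 called genes in Male against Female, where 21.4% of all genes tested did, and 2 in KD against WT, where 9.95% did. The samples of the compared groups did not overlap for 40 of the 43 genes in the first comparison and for 37 in the second, beside 58.3% and 46.8% of all genes tested. Most of the 43 are abundant transcripts, so the shares were also taken over genes that averaged 5 or more in log2 CPM, a level chosen after seeing the data. Among the 6004 such genes of Male against Female, 38% were called higher and 41.9% lower, and of the 41 members at that level 11 were higher and 25 lower. Among the 5883 such genes of KD against WT, 25.3% were called higher and 37.7% lower, and of the 41 members 3 were higher and 32 lower. The coefficient of variation between replicates had a median of 1.42% to 2.25% per group over the 42 members other than Fos.

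**Figure D1:**
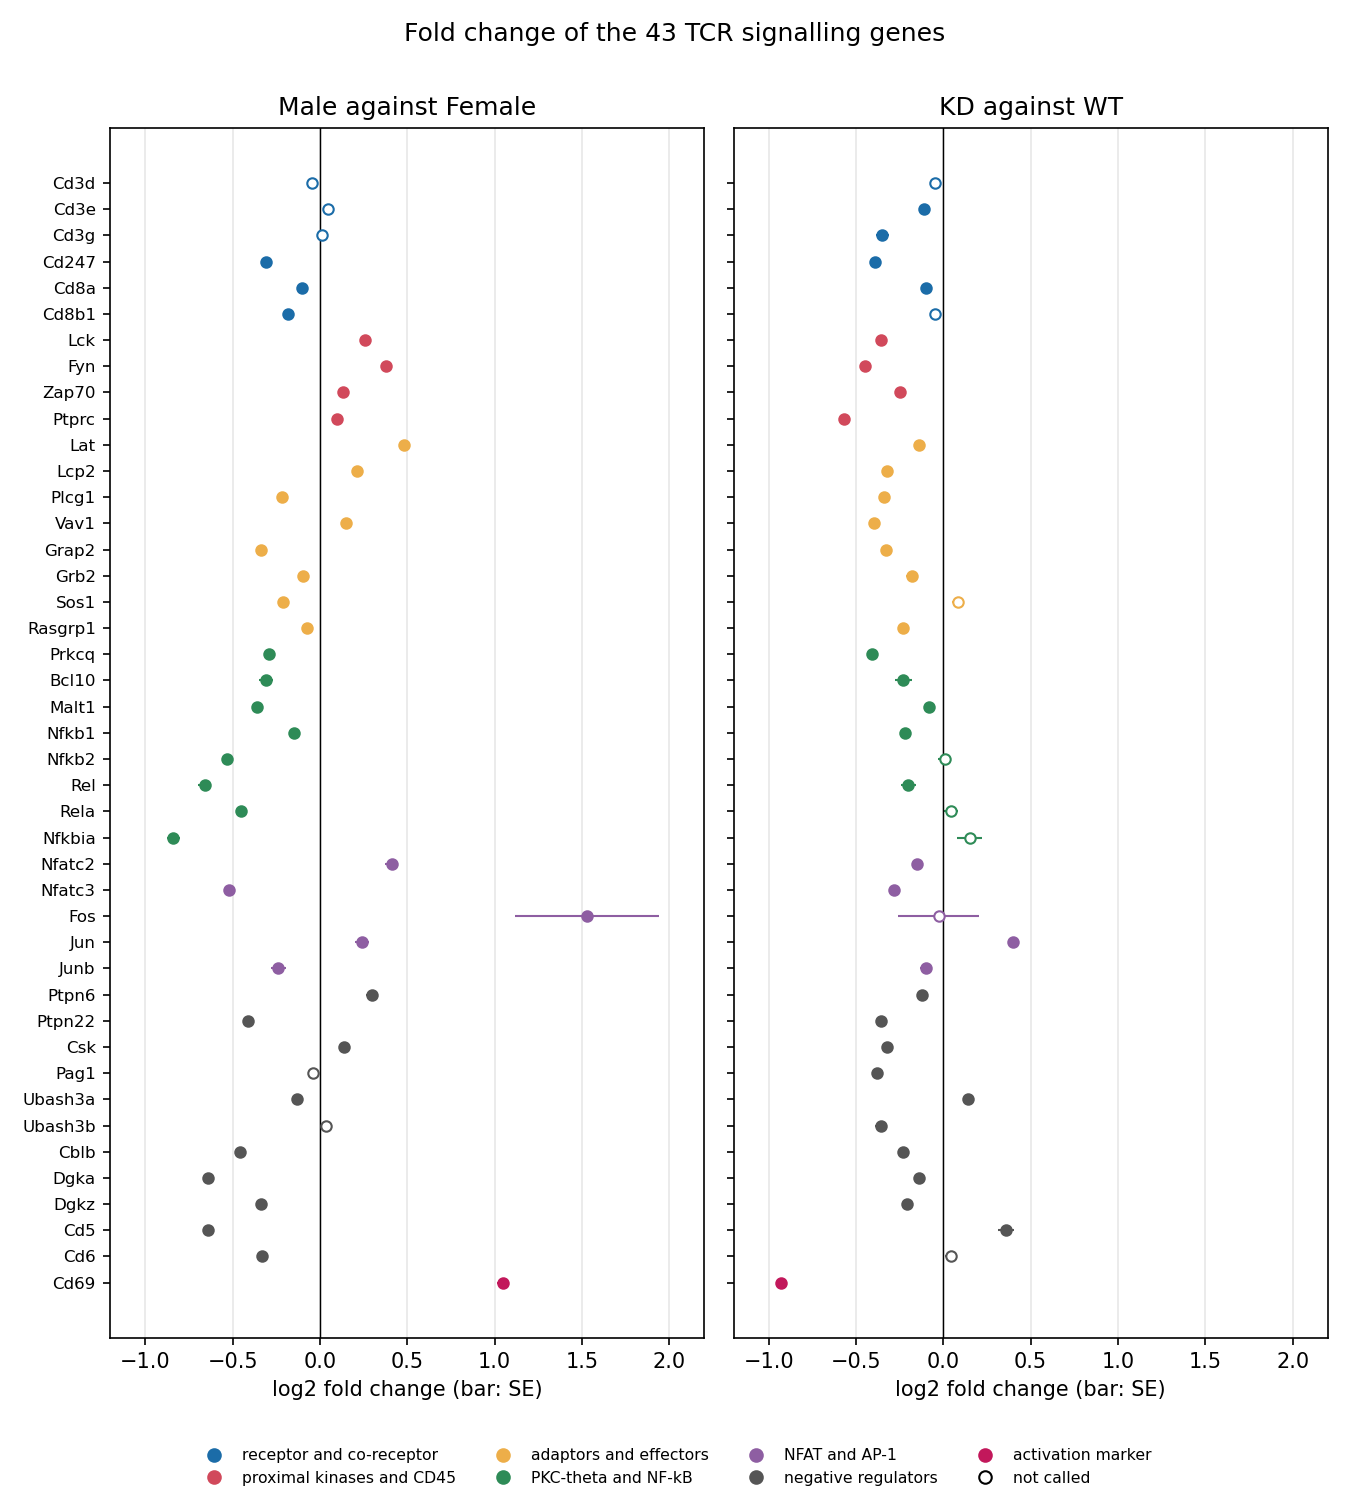
Log2 fold change of each of the 43 genes (x axis, bars are standard errors) in Male against Female on the left and KD against WT on the right, coloured by role, with open symbols for genes not called. The 8 PKC-theta and NF-kB genes lie left of 0 in the left panel, and the 4 genes for proximal kinases and CD45 lie right of 0 there and left of 0 in the right panel.

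Cd69, an early activation antigen that holds lymphocytes in tissue by pulling the S1P receptor from the surface, lies on chromosome 6 (chr6:129267325-129275436, minus strand, GRCm38). It stood at 85.2, 77.4 and 80.2 CPM in the Female samples and at 169, 169 and 164 CPM in the Male samples. Each Male sample was thus above each Female sample, with a mean of 167 CPM against 80.9 and a log2 fold change of 1.05 (SE 0.0346, adjusted p = 3.52e-09). In the other batch, Cd69 stood at 130, 134 and 134 CPM in WT and at 70.7, 70 and 68.1 CPM in KD. KD was lower in every sample, with a log2 fold change of -0.93 (SE 0.0274, adjusted p = 6.02e-09). By absolute log2 fold change Cd69 ranked behind Fos alone among the 43 genes in Male against Female, and was the largest in KD against WT.

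The receptor and its co-receptor differed little. None of the 6 genes was higher in Male, 3 were lower and 3 were not called, around a median of -0.076 on the log2 scale. In KD none was higher, 4 were lower and 2 were not called, with a median of -0.11. Cd247 encodes the zeta chain, which carries most of the receptor's phosphorylation motifs (chr1:165788681-165877277, plus strand). Its level was 186, 189 and 186 CPM in Female and 151, 151 and 150 CPM in Male, a log2 fold change of -0.31 (SE 0.0209, adjusted p = 6.21e-07). It was 177, 173 and 173 CPM in WT and 130, 133 and 136 CPM in KD, a log2 fold change of -0.39 (SE 0.0248, adjusted p = 1.19e-06). The groups did not overlap in either comparison.

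Of the exonic bases of Cd247, 56.4% lie opposite exons of Pou2f1, and whether the counting used strand is not given in the sources used here. Pou2f1 itself fell in Male (log2 fold change -0.22, adjusted p = 0.000278) and rose in KD (0.23, adjusted p = 8.82e-05), so in the second comparison the pair moved in opposite directions.

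The other 3 CD3 genes did not follow the zeta chain in Male. Cd3d, Cd3e and Cd3g had log2 fold changes of -0.047, 0.048 and 0.012, none of them called. Once the trend of fold change with merged exon length was removed, Cd3d was lower (-0.12, adjusted p = 0.014) and Cd3e higher (0.069, adjusted p = 0.0194). Merged exons join all annotated exons of a gene, so this length can exceed that of any one transcript. In KD, Cd3g fell: it stood at 128, 117 and 127 CPM in WT and at 99.4, 96.1 and 95.3 CPM in KD, a log2 fold change of -0.35 (SE 0.0379, adjusted p = 4.48e-05). Cd3e fell by 0.11 there, and Cd3d, at -0.047, was called in neither comparison. The level of Cd247 per length, divided by that of Cd3e, was 0.512 to 0.52 in the Female samples, 0.4 to 0.408 in Male, 0.298 to 0.305 in WT and 0.24 to 0.261 in KD, with no overlap within either comparison.

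The co-receptor chains Cd8a and Cd8b1 bind MHC class I and bring Lck to it. Cd8b1, which had the highest level per length of the receptor genes on average over the 4 groups, stood at 277, 273 and 281 CPM in Female and at 246, 243 and 245 CPM in Male. Its log2 fold change was -0.18 (SE 0.02, adjusted p = 3.09e-05), or -0.29 (adjusted p = 1.12e-06) once the trend of fold change with merged exon length was removed. In WT it was at 245, 246 and 250 CPM and in KD at 231, 244 and 242 CPM, and the difference of -0.049 was not called (adjusted p = 0.158). Cd8a fell by 0.10 on the log2 scale in both comparisons. Of the constant chains of the receptor itself, which stand outside the list, Trbc1 (473 CPM in Female, 360 in Male) and Trbc2 (871 and 779) were lower in Male by 0.39 and 0.16, and Trbc1 was lower in KD (359 in WT, 311 in KD). All 3 constant chains were lower in Male, and 1 of 3 was lower in KD.

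The 4 genes for proximal kinases and CD45 were all higher in Male and all lower in KD, and the median of their log2 fold changes was 0.20 in the former and -0.40 in the latter. Per length of merged exons, Lck was the most abundant of the 43 transcripts in Male, WT and KD, although Ptprc was the highest by CPM. Lck phosphorylates the receptor chains first (chr4:129548344-129573641, minus strand). It stood at 515, 515 and 520 CPM in Female and at 623, 615 and 618 CPM in Male, a log2 fold change of 0.26 (SE 0.0155, adjusted p = 2.48e-07). In the second batch it was at 762, 763 and 759 CPM in WT and at 587, 603 and 596 CPM in KD, a log2 fold change of -0.36 (SE 0.0159, adjusted p = 1.04e-07). The 3 samples of each group lay close together and the groups were well apart.

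Fyn is the second Src-family kinase at the receptor (chr10:39368855-39565381, plus strand). Its values were 188, 187 and 189 CPM in Female and 243, 246 and 245 CPM in Male, a log2 fold change of 0.38 (SE 0.0196, adjusted p = 8.52e-08). They were 230, 225 and 224 CPM in WT and 165, 170 and 161 CPM in KD, a log2 fold change of -0.45 (SE 0.025, adjusted p = 4.19e-07). Fyn moved further than Lck in both comparisons, so that the ratio of Fyn to Lck per length was 0.243 to 0.246 in Female, 0.262 to 0.269 in Male, 0.198 to 0.203 in WT and 0.182 to 0.189 in KD.

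Ptprc encodes CD45, which removes the inhibitory phosphate from Lck (chr1:138062861-138175708, minus strand). The gene stood at 2006, 1968 and 1983 CPM in Female and at 2144, 2120 and 2110 CPM in Male, a log2 fold change of 0.098 (SE 0.0117, adjusted p = 5.18e-05). That became 0.38 (adjusted p = 2.47e-07) once the trend of fold change with merged exon length was removed. The merged exons of Ptprc, at 18313 bases, are the longest of the 43 genes. In WT it was at 2387, 2379 and 2366 CPM and in KD at 1630, 1561 and 1623 CPM. That log2 fold change of -0.57 (SE 0.0169, adjusted p = 6.72e-09) was, with that of Cd69, the only called difference past 0.5 among the 43 genes in KD against WT. Zap70, the kinase that binds the phosphorylated chains, rose by 0.13 in Male and fell by 0.25 in KD. Counts per gene do not separate the spliced forms of CD45.

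**Figure D2:**
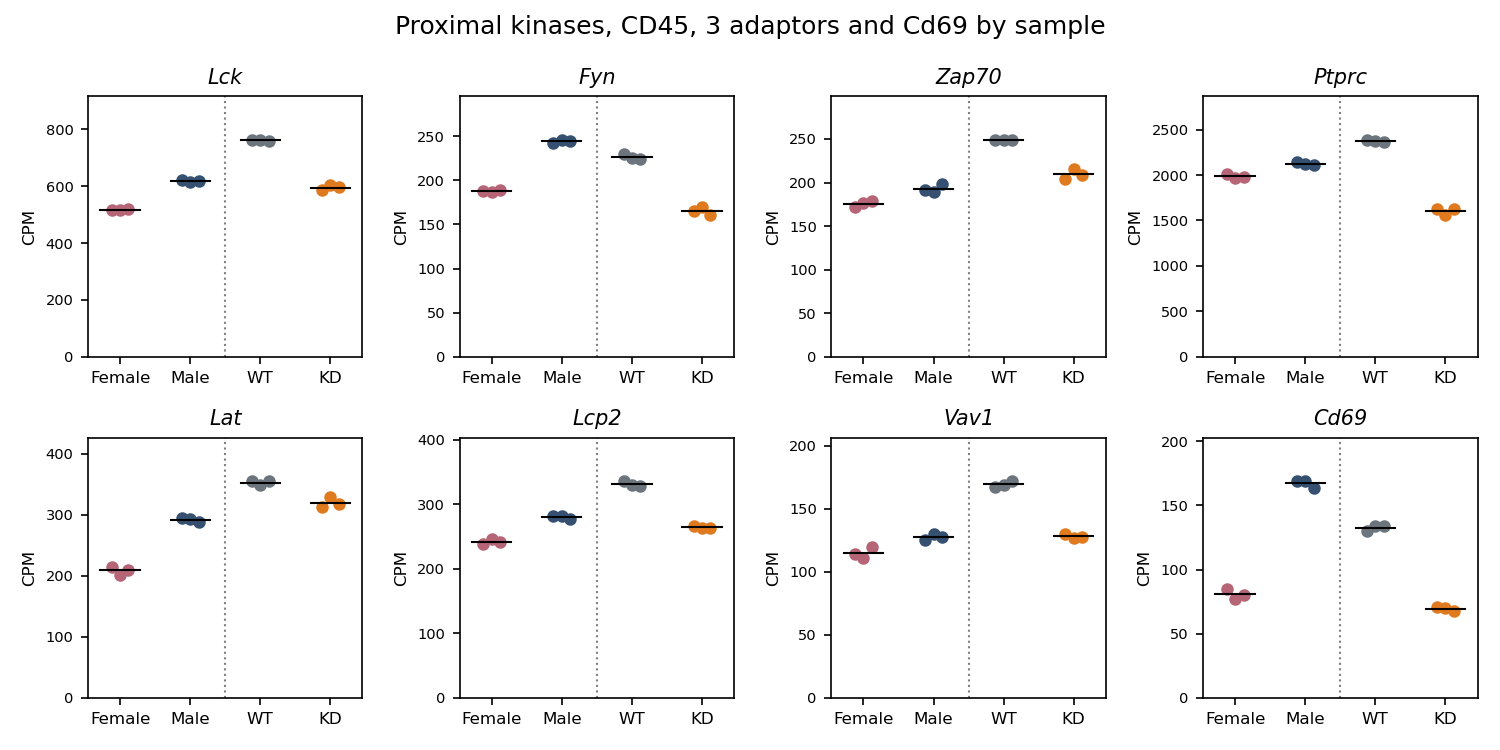
CPM of 8 genes in each of the 12 samples (points) with the group mean (line), y axes from 0, and a dotted line between the separately normalised tables. The genes are Lck, Fyn, Zap70, Ptprc, Lat, Lcp2, Vav1 and Cd69. All are among the 11 called higher in Male and lower in KD, so their shared directions follow from the choice of genes. The 5 adaptors and effectors that were lower in Male are not shown. In each panel the 3 Male points lie above the 3 Female points and the 3 KD points lie below the 3 WT points. For Cd69 the means are 80.9, 167, 133 and 69.6 CPM.

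Adaptors and effectors split in Male and fell together in KD: 3 of 8 were higher and 5 lower in Male (median log2 fold change -0.087), and 7 of 8 were lower and none higher in KD (median -0.27). The 3 that rose in Male were Lat, Lcp2 and Vav1, and all 3 fell in KD. Lat encodes the membrane scaffold on which the signalling complex assembles (chr7:126363824-126369570, minus strand). It stood at 215, 201 and 210 CPM in Female and at 294, 293 and 288 CPM in Male, a log2 fold change of 0.48 (SE 0.0264, adjusted p = 1.28e-07). It was at 355, 348 and 355 CPM in WT and at 313, 329 and 317 CPM in KD, a smaller difference of -0.14 (SE 0.0225, adjusted p = 0.00074).

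Lcp2, which encodes the cytosolic scaffold SLP-76, rose by 0.21 in Male and fell by 0.32 in KD. Vav1, an exchange factor for Rac that controls the actin cytoskeleton, had 114, 111 and 120 CPM in Female and 125, 130 and 128 CPM in Male (log2 fold change 0.15, adjusted p = 0.00183). It had 167, 169 and 172 CPM in WT and 130, 127 and 128 CPM in KD (log2 fold change -0.40, SE 0.0234, adjusted p = 6.31e-07), the largest fall among the 8 in KD. The Vav1 values of Male and KD were alike, but the tables were normalised separately and were not tested against each other.

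Grap2 and Plcg1 were lower in both comparisons. Grap2 encodes Gads, which links SLP-76 to LAT, and had 710, 700 and 705 CPM in Female against 554, 560 and 555 CPM in Male (log2 fold change -0.34, SE 0.0151, adjusted p = 2.86e-08). In WT it had 536, 538 and 537 CPM, and in KD 429, 425 and 424 CPM (log2 fold change -0.33, SE 0.0157, adjusted p = 1.42e-07). Plcg1, the phospholipase that makes diacylglycerol and the calcium-releasing messenger IP3, had 264, 263 and 253 CPM in Female and 223, 221 and 226 CPM in Male (log2 fold change -0.22, adjusted p = 1.94e-05, or -0.092 with an adjusted p of 0.00964 once the length trend was removed). Its values were 217, 212 and 207 CPM in WT and 166, 170 and 166 CPM in KD (log2 fold change -0.34, SE 0.0238, adjusted p = 2.29e-06).

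Rasgrp1 and Sos1, both Ras exchange factors, and Grb2, the adaptor that carries SOS, were lower in Male by 0.076, 0.21 and 0.098 on the log2 scale. In KD, Rasgrp1 fell by 0.23 and Grb2 by 0.18, while Sos1 had a log2 fold change of 0.085 and was not called (adjusted p = 0.0736). Of the 31-base stretches of Grb2, 12.1% are shared with Gm12791, which was below 1 CPM in every group mean. The Male values of Rasgrp1 and Sos1 were not called once the trend of fold change with merged exon length was removed (0.011, adjusted p = 0.688, and -0.024, adjusted p = 0.561).

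All 8 genes of the PKC-theta and NF-kB arm were lower in Male, with a median log2 fold change of -0.41, and 3 of them by more than 0.5. In KD, 5 of the 8 were lower (median -0.14), and Nfkb2, Rela and Nfkbia were not called. The arm runs from the kinase Prkcq through the Bcl10 and Malt1 complex to the NF-kB subunits and their inhibitor. Prkcq had the highest level per length of the arm on average over the groups (chr2:11172108-11301222, plus strand). It stood at 312, 321 and 312 CPM in Female and at 262, 256 and 256 CPM in Male (log2 fold change -0.29, SE 0.0209, adjusted p = 1.1e-06). Values were 238, 238 and 237 CPM in WT and at 180, 177 and 180 CPM in KD (log2 fold change -0.41, SE 0.0196, adjusted p = 1.61e-07).

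Bcl10, the adaptor that forms filaments and binds MALT1, had 56.3, 60.3 and 61.2 CPM in Female and 49.6, 47.6 and 46.6 CPM in Male (log2 fold change -0.31, adjusted p = 8.08e-05). Its levels were 38.6, 39.9 and 40.7 CPM in WT and 36.1, 32.7 and 32.6 CPM in KD (log2 fold change -0.23, adjusted p = 0.00334). Malt1, the protease of the complex, had log2 fold changes of -0.36 in Male and -0.081 in KD. Its Male value shrank to -0.086 (adjusted p = 0.00343), and that of Prkcq to -0.17 (adjusted p = 8.28e-05), once the trend of fold change with merged exon length was removed. The KD call for Malt1 rested on the scaling, with an adjusted p of 0.104 under upper-quartile factors, and on WT replicate 3, without which the adjusted p was 0.05.

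Nfkbia encodes IkB-alpha, which holds NF-kB in the cytoplasm and is itself a target gene of NF-kB. It showed the largest fall of the 43 genes in Male: 56.5, 53.4 and 56.2 CPM in Female against 29.8, 31.6 and 31.4 CPM in Male, a log2 fold change of -0.84 (SE 0.0378, adjusted p = 3.29e-08). In WT it was at 15.4, 17.2 and 17 CPM and in KD at 19.9, 16.5 and 18.6 CPM. Those groups overlapped, and the log2 fold change of 0.15 was not called (adjusted p = 0.16), although it was called without KD replicate 2 (0.22, adjusted p = 0.0344).

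Rel, the c-Rel subunit that is most active in lymphocytes, had 115, 114 and 119 CPM in Female and 72.2, 77.9 and 70.8 CPM in Male, a log2 fold change of -0.66 (SE 0.0372, adjusted p = 1.73e-07). In WT it had 54.4, 50.8 and 52.5 CPM and in KD 43.9, 45.8 and 47.7 CPM (log2 fold change -0.20, SE 0.0417, adjusted p = 0.00376). Rel was thus lower in every Male and every KD sample than in the samples of its comparison group. The subunit genes Nfkb2 (p100), Rela (p65) and Nfkb1 (p105) fell by 0.53, 0.45 and 0.15 in Male. In KD, Nfkb1 fell by 0.22, and Nfkb2 and Rela had log2 fold changes of 0.0071 and 0.043.

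Nfkb1 was the exception to the direction of the arm: its Male value turned to 0.06 (adjusted p = 0.0481) once the length trend was removed. Of the exonic bases of Nfkb2, 18.1% lie opposite 2 genes counted at under 10 CPM, AC114539.1 and Psd, which were also lower in Male (log2 fold changes -0.50 and -0.63). The level of Nfkb2 per length divided by that of Nfkb1 was 0.835 to 0.857 in Female and 0.623 to 0.67 in Male, but 0.354 to 0.381 in WT and 0.412 to 0.45 in KD. The ratio of Rel to Rela was 0.49 to 0.53 in Female, 0.422 to 0.467 in Male, 0.281 to 0.305 in WT and 0.24 to 0.254 in KD. None of these ratios overlapped within a comparison, and the exact two-sided permutation test of 3 samples against 3 cannot give a p below 0.1.

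**Figure D3:**
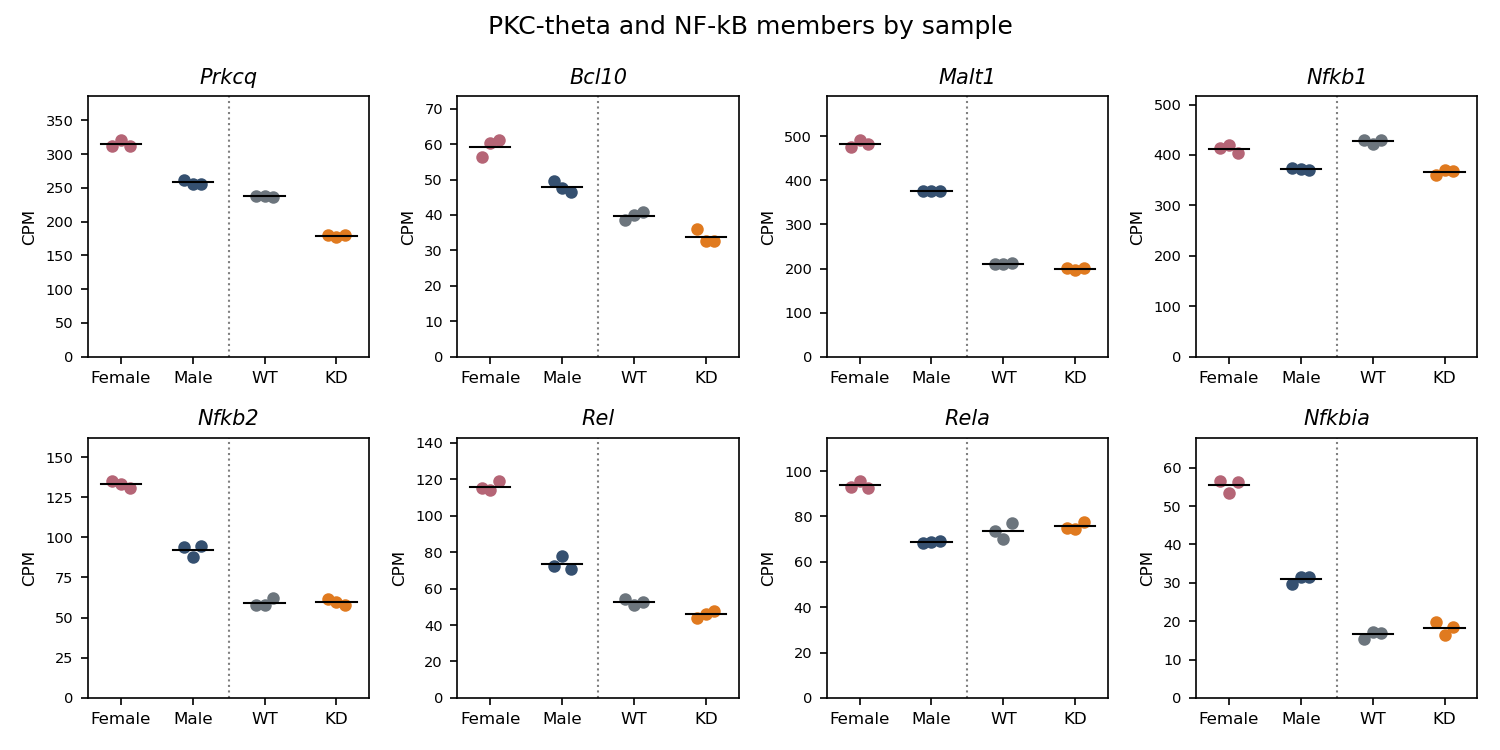
CPM of the 8 PKC-theta and NF-kB genes in each of the 12 samples (points) with the group mean (line), y axes from 0, and a dotted line between the separately normalised tables. Every Male point lies below every Female point in the 8 panels, whereas WT and KD overlap for Nfkb2, Rela and Nfkbia.

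The promoters of the members were searched for the kappaB consensus, a motif of 10 bases, on both strands. A symmetric site thus counts on each strand, and matches that overlap by all but 1 base count apart. The windows ran from 250 bases before to 50 after each RefSeq transcript start (GRCm38.p6). A window was given for 37 of the 43 genes. The consensus was found for 4 of 6 genes of the arm (Bcl10, Nfkb2, Nfkbia and Rel), for 1 of 31 other members (Fos), and for 9.55% of all 27025 genes with a window, or 8.46% of the 32851 windows. Genes with several starts, such as Nfkb2, have more windows in which to match. Of a gene's windows with a match, the lowest by coordinate is shown, and Nfkb2 had several. Below are the 120 bases before that start for the 3 genes of the arm that fell furthest in Male, 5′ to 3′ on the gene's strand, with matches in capitals (Nfkbia chr12:55492648-55492767 minus strand, Rel chr11:23770970-23771089 minus strand, Nfkb2 chr19:46304617-46304736 plus strand).
Nfkbia: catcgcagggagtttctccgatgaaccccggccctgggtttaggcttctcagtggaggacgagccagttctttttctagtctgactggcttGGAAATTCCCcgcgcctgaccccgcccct
Rel: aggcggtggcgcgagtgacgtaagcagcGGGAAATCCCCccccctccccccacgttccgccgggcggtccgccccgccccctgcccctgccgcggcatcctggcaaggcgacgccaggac
Nfkb2: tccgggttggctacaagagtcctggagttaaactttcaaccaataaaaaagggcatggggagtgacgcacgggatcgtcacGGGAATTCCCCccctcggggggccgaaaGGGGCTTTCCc
The capitals in Rel and the first run in Nfkb2 span overlapping matches. A match describes the letters of the window and is not a measured binding site. Of the members with a match, Bcl10, Nfkb2, Nfkbia and Rel were lower in Male and Fos was higher (1.53). In KD, Bcl10 and Rel were lower, and Nfkb2, Nfkbia and Fos were not called. Whether such sites bear on these differences was not tested. Of the 14 further genes of the NF-kB arm outside the list, 10 had a window and 4 of those held the consensus.

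Those 14 further genes were 2 higher and 9 lower in Male, with a median of -0.40, and 2 higher and 5 lower in KD, with a median of -0.07. The largest differences in Male were Relb, a subunit of the alternative NF-kB dimer (73.5 CPM in Female, 33.7 in Male, log2 fold change -1.13), and Tnfaip3, which encodes the NF-kB inhibitor A20 (56.5 and 29.9 CPM, -0.92). In KD, Tnfaip3 was higher (17.8 CPM in WT, 23.5 in KD, 0.40).

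Among the NFAT and AP-1 genes, 3 were higher and 2 lower in Male, and 1 was higher and 3 lower in KD. The NFAT factors, which calcineurin sends to the nucleus, parted in Male. Nfatc3 (chr8:106058840-106130537, plus strand) had 444, 460 and 453 CPM in Female and 316, 316 and 312 CPM in Male, a log2 fold change of -0.52 (SE 0.0195, adjusted p = 8.74e-09), or -0.32 (adjusted p = 4.38e-07) with the length trend removed. Nfatc2 rose there by 0.41 (adjusted p = 3.43e-06), from a mean of 155 to 206 CPM. In KD both fell: Nfatc3 had 309, 302 and 303 CPM in WT and 248, 255 and 251 CPM in KD (log2 fold change -0.28, SE 0.0202, adjusted p = 3.08e-06), and Nfatc2 fell by 0.15.

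Jun, the partner of Fos in AP-1, was the only one of the 43 genes called higher in both comparisons. It had 26.6, 25.3 and 25.6 CPM in Female and 29.5, 31.4 and 30.5 CPM in Male (log2 fold change 0.24, SE 0.0407, adjusted p = 0.000624). In WT it had 95.8, 101 and 97.1 CPM and in KD 132, 127 and 129 CPM (log2 fold change 0.40, SE 0.0283, adjusted p = 2.55e-06). The 6 electroporated samples thus all lay above the 6 others, across tables that were normalised separately.

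Junb, another Jun protein and the most abundant per length of the 5, had 99.2, 92.1 and 97.4 CPM in Female and 82.9, 76.4 and 85.4 CPM in Male (log2 fold change -0.24, SE 0.043, adjusted p = 0.000913). WT samples had 97.3, 105 and 101 CPM and in KD 97, 93.8 and 91.8 CPM. That difference of -0.099 just passed the threshold (adjusted p = 0.0452) and was called in 8 of 17 other fits.

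Fos was the least abundant of the 43 genes in every group. It stood at 0.814, 0.872 and 0.195 CPM in Female and at 1.95, 1.7 and 1.77 CPM in Male, a log2 fold change of 1.53 with a wide error (SE 0.413, adjusted p = 0.0107). Female replicate 3, at 19 counts, was far below the other two, and without it the log2 fold change was 1.10 (adjusted p = 0.00151). In WT the values were 0.813, 1.1 and 0.814 CPM and in KD 0.913, 0.709 and 1.06 CPM, which overlapped (log2 fold change -0.027, adjusted p = 0.946). Of 6 further AP-1 genes, 2 were higher and 1 lower in Male and 1 was higher and 3 lower in KD. Fosl2 showed the largest difference in KD (247 CPM in WT, 138 in KD, log2 fold change -0.84), Batf3 was lower in Male (25.6 to 17.7 CPM) and higher in KD (5.88 to 9.96 CPM), and Fosl1 was higher in Male at under 1 CPM.

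The negative regulators were mostly lower in both comparisons. In Male, 2 of 11 were higher and 7 lower, around a median of -0.33 on the log2 scale. In KD, 2 were higher and 8 lower, around -0.21. With the length trend removed, 4 were higher and 6 lower in Male. Dgka encodes a diacylglycerol kinase that removes the messenger for RasGRP1 and PKC-theta (chr10:128720134-128744855, minus strand). It had 367, 364 and 367 CPM in Female and 235, 234 and 233 CPM in Male, a log2 fold change of -0.64 (SE 0.0179, adjusted p = 1.14e-09). Its WT samples had 275, 276 and 279 CPM and its KD samples 249, 251 and 255 CPM, a difference of -0.14 (SE 0.0189, adjusted p = 0.000267). Its relative Dgkz fell by 0.34 in Male and by 0.21 in KD, and the ratio of Dgka to Dgkz per length was 1.35 to 1.37 in Female, 1.08 to 1.12 in Male, 1.31 to 1.37 in WT and 1.36 to 1.43 in KD.

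Cd5, a surface receptor that dampens signalling, moved in opposite directions (chr19:10717116-10739002, minus strand). It had 114, 109 and 113 CPM in Female and 70.7, 72.5 and 73.2 CPM in Male, a log2 fold change of -0.64 (SE 0.0281, adjusted p = 2.86e-08). In the second batch, WT had 37, 37.7 and 35.9 CPM and in KD 45.1, 50.5 and 46.5 CPM, a log2 fold change of 0.36 (SE 0.0468, adjusted p = 0.000167). Its neighbour on chromosome 19 and structural relative, Cd6, fell by 0.33 in Male and was not called in KD (0.042, adjusted p = 0.357).

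The regulators of Src-family kinases did not move as a block. Csk, which places the inhibitory phosphate on Lck and Fyn, was the most abundant of the 11 per length. It had 357, 351 and 356 CPM in Female and 397, 390 and 388 CPM in Male (log2 fold change 0.14, SE 0.0184, adjusted p = 8.27e-05), then 433, 441 and 445 CPM in WT and 355, 356 and 350 CPM in KD (-0.32, SE 0.0183, adjusted p = 6.1e-07). Pag1, the membrane anchor of Csk, had 148, 153 and 145 CPM in Female and 140, 148 and 146 CPM in Male, which overlapped (log2 fold change -0.04, adjusted p = 0.301). In WT Pag1 had 165, 174 and 169 CPM and in KD 127, 132 and 133 CPM, a log2 fold change of -0.38 (SE 0.0284, adjusted p = 3.68e-06). Csk thus had the directions of Lck and Fyn in both comparisons.

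The phosphatases parted in Male. Ptpn6 (SHP-1) rose by 0.30 in Male and fell by 0.12 in KD, while Ptpn22, which acts with Csk on Lck, fell by 0.41 and 0.36. Cblb, a ubiquitin ligase that limits activation without costimulation, fell by 0.46 and 0.23. The related genes Ubash3a and Ubash3b (STS-2 and STS-1, which act on Zap70) went apart: Ubash3a fell by 0.13 in Male and rose by 0.14 in KD, whereas Ubash3b was not called in Male (0.036, adjusted p = 0.356) and fell by 0.36 in KD. The ratio of Ubash3b to Ubash3a per length was 0.647 to 0.658 in Female, 0.704 to 0.765 in Male, 0.77 to 0.822 in WT and 0.556 to 0.581 in KD.

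Both small and large Male values of this group moved with a correction for merged exon length. With the length trend removed, Cblb was at -0.28 (adjusted p = 3.44e-06) and Cd6 at -0.20 (adjusted p = 2.92e-05), Ubash3a was at 0.07 (adjusted p = 0.085), and Pag1 and Ubash3b became higher, at 0.13 (adjusted p = 0.00582) and 0.15 (adjusted p = 0.00174). The members have a median exon length of 4762 bases, beside 2994 for the genes tested. Among genes that averaged 5 or more in log2 CPM, the median log2 fold change of Male against Female was 0.029 under 2000 bases and 0.063 for 2000 to 4000 bases. It was -0.027 for 4000 to 8000 bases and -0.10 for 8000 bases or more. The members in these bins had medians of -0.18, 0.13, -0.31 and -0.15, in the same order. Over the 43 genes, removal of the trend gave 17 higher and 22 lower in Male, and 3 higher and 32 lower in KD. The median of the PKC-theta and NF-kB arm in Male was then -0.35, that of the proximal kinases and CD45 0.32. That of the negative regulators was -0.20, with 4 higher and 6 lower. Adaptors and effectors had a median of -0.0067, with 3 higher and 3 lower. The medians were -0.11 for receptor and co-receptor and 0.24 for NFAT and AP-1.

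The 2 comparisons share no samples. Of the 43 genes, 31 were called in both, beside 25.7% of the 19529 genes tested in both, and Cd3d was called in neither. Calls were more common among genes that averaged 5 or more in log2 CPM (79.9% in Male against Female, 63% in KD against WT). The shares in both comparisons were not taken at that level. Lower in both were 17 genes (6.62% of all genes), among them Cd247, Plcg1, Grap2, Prkcq, Rel, Nfatc3, Ptpn22, Cblb, Dgka and Dgkz. Higher in Male and lower in KD were 11 genes (7.33% of all genes): Lck, Fyn, Zap70, Ptprc, Lat, Lcp2, Vav1, Nfatc2, Ptpn6, Csk and Cd69. Lower in Male and higher in KD were Cd5 and Ubash3a (6.82% of all genes), and higher in both was Jun (4.92%). The 13 genes with opposite signs are 41.9% of the 31, a share below the 55.1% of all genes called in both. These classes are those of the main fit. With the length trend removed, the Male values of Rasgrp1, Nfkb1 and Ubash3a were 0.011, 0.06 and 0.07. Cd3e, Pag1 and Ubash3b, all lower in KD, were then called higher in Male. Junb, among the genes lower in both, was called in KD in 8 of 17 other fits. The share was not taken for other fits.

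**Figure D4:**
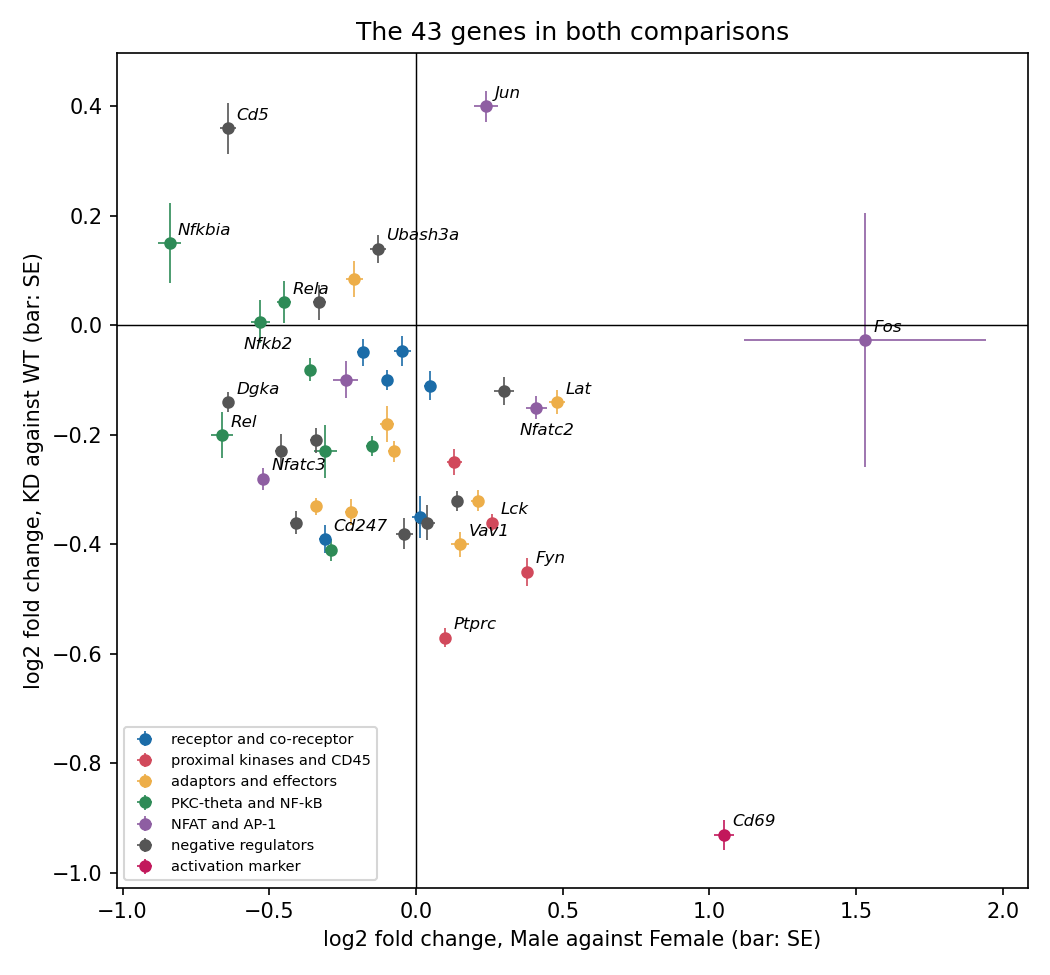
Log2 fold change in Male against Female (x axis) and in KD against WT (y axis) for the 43 genes, with standard errors, coloured by role. The proximal kinases and CD45 lie in the lower right with Cd69, 5 of 8 genes of the NF-kB arm and 5 of 11 negative regulators in the lower left, and Cd5 in the upper left.

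Per length of merged exons, the transcripts spanned from Fos, at 0.267 to 0.768 CPM per kilobase in the group means, to Lck, at 176 to 260. These levels depend on the merged length. Ptprc, the longest of the 43 at 18313 bases, was the highest by CPM in every group. In Female the order was led by Cd8b1 (187), Lck (176), Cd8a (148) and Grap2 (113), and in WT by Lck (260), Cd8a (171), Cd8b1 (167) and Ptprc (130). The CD8 chains changed places in WT: the ratio of Cd8b1 to Cd8a was 1.25 to 1.29 in Female, 1.18 to 1.22 in Male, 0.945 to 0.998 in WT and 0.976 to 1.04 in KD, the last 2 overlapping each other and KD also reaching across 1. Some genes were at another level in the electroporated batch than in the other: Nfatc2 stood at 14.7 CPM per kilobase in Female and 19.5 in Male but 32.9 in WT and 29.6 in KD, and Jun at 8.1 and 9.56 but 30.7 and 40.4. Rel was at 15.5 and 9.86 but 7.05 and 6.13, and Nfkbia at 34.4 and 19.2 but 10.3 and 11.4. These levels are set across tables normalised separately, and batch, electroporation and culture cannot be told apart there.

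**Figure D5:**
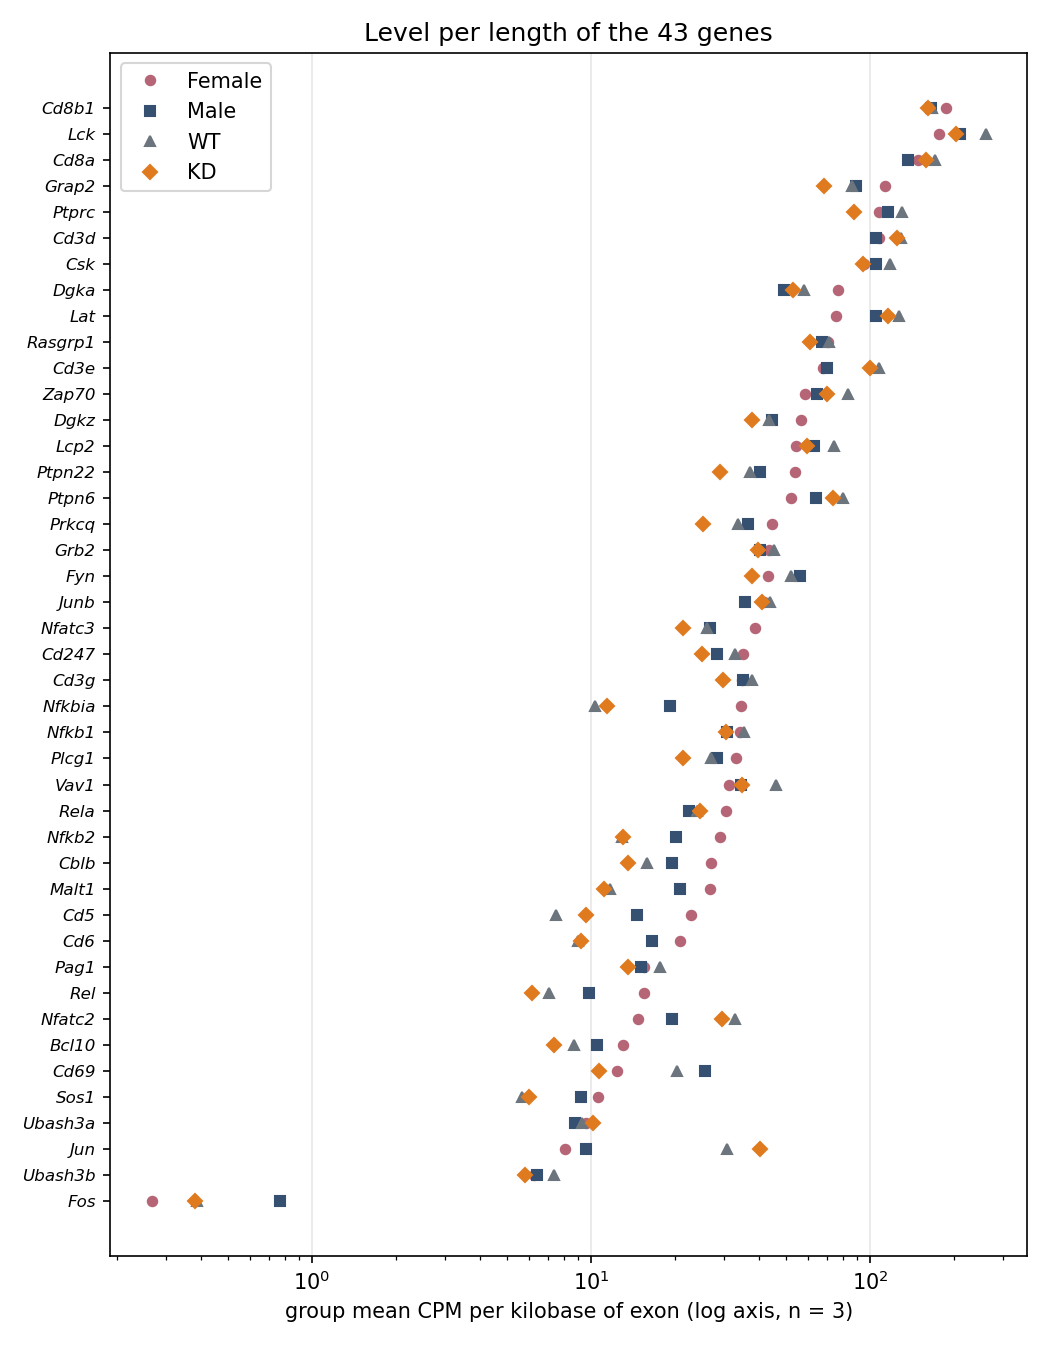
Group mean level of each of the 43 genes in CPM per kilobase of merged exons (log axis, n = 3 samples per group), ordered by the Female level. Lck and the CD8 chains are the top 3 in all groups, Fos is lowest, and Jun, Nfatc2, Nfkbia, Cd5 and Rel are among those with wide gaps between the 2 tables.

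Other genes of the pathway, outside the 43, were counted by arm. Beside each such list stand the shares over all genes tested: 23.5% higher and 26.3% lower in Male, 16.8% and 18.4% in KD. Among genes that averaged 5 or more in log2 CPM, the shares were 38% and 41.9% in Male, 25.3% and 37.7% in KD. Of 17 further proximal kinases and adaptors, 3 were higher and 12 lower in Male (median -0.27), and 2 were higher and 12 lower in KD (median -0.20). Trat1, an adaptor associated with the receptor, was the largest in both, lower in Male (10.9 to 4.12 CPM, log2 fold change -1.40) and higher in KD (3.92 to 6.01 CPM, 0.62). The adaptor Gab2 was lower in Male (37.6 to 17.3 CPM, -1.12), and Txk, a Tec-family kinase, was lower in KD (89.8 to 64.6 CPM, -0.48). In the calcium and calcineurin arm, 3 of 15 were higher and 11 lower in Male, led by the calcineurin inhibitor Rcan1 (17.3 to 7.72 CPM, -1.16) and the calcium channel Orai2 (102 to 49.4 CPM, -1.05), and 2 were higher and 7 lower in KD.

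The Ras and MAP kinase arm was balanced in Male, with 4 of 13 higher and 5 lower, and had 2 higher and 8 lower in KD. Of 16 further negative regulators, 4 were higher and 9 lower in Male and 1 was higher and 10 lower in KD. Spry2, an inhibitor of Ras signalling, was lower in Male (1.45 to 0.751 CPM) and higher in KD (1.14 to 2.37 CPM), the MAP kinase phosphatase Dusp6 was lower in KD (114 to 69 CPM, log2 fold change -0.73), and the docking protein Dok2 was higher in Male (60.4 to 113 CPM, 0.91). Of 15 immediate early genes, which receptor and stress signals induce, 5 were higher and 4 lower in Male, led by Ier3 (9.48 to 17.7 CPM, 0.90) and Dusp1 (12.8 to 22 CPM, 0.79). In KD 6 were higher and 7 lower, led by Egr3 (4.36 to 12.8 CPM, 1.55) and by Klf4 at under 1 CPM. Cd69 and the immediate early genes thus did not all share a direction in KD. In bulk RNA, fewer cells that carry a transcript and less of it per cell cannot be told apart, and the samples describe RNA after 3 days of culture, not protein or phosphorylation.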

How the data were processed

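Total RNA of 12 samples was sequenced after depletion of ribosomal RNA with a stranded kit, per the labels' protocols. The 2 deposited tables, 1 for each pair of groups, hold raw counts of genes by sample, in whole numbers that sum to unlike totals. The submitters' processing notes name bcl2fastq 2.20.0, HISAT2, StringTie, DESeq2 and mm10, with no role or order; the annotation, the counting step and its use of strand are not given in the sources used here. Groups came from sample titles.

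Identifiers were matched to GENCODE mouse release M21 (GRCm38), 55141 of 55487. Each table was fitted alone with edgeR 4.0.16 in R 4.3.3 (TMM, filterByExpr, quasi-likelihood test, Benjamini-Hochberg over all genes tested), calling genes at an adjusted p under 0.05; "not called" means not past it. Standard errors are the absolute log2 fold change over the square root of F. CPM uses TMM-scaled library sizes, and levels per length divide it by 1000 bases of merged exons. The fits were also run on simulated counts with planted fold changes, and the outcome is not given here. Those counts held no trend with length, so they could not test how well the length correction removes one. Alternatives used DESeq2 1.42.0 and limma 3.58.1, other scalings and filters, thinning, a correction for merged exon length, a replicate block and leaving out each sample.

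The members, roles and lists were chosen with earlier results of these data known. Sample values are given for the 2 called members with the largest absolute log2 fold change in each role and comparison, the most abundant member per length of each role, Cd69 and Kdm5d; at most 2 called genes are named per other list and comparison, and 1 gene that this rule takes is not reported here.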

Additional observations from a re-analysis of the deposited data

How the results depend on the processing

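Over 11 other fits and 6 that left out a sample, 34 of the 43 genes in Male against Female and 36 in KD against WT kept their direction and call. Counts of members stayed between 12 and 17 higher and 22 and 25 lower in Male, and between 3 and 4 higher and 30 and 32 lower in KD, except with an absolute log2 fold change of at least 0.5, which left 2 higher and 6 lower in Male, 0 higher and 2 lower in KD. Same-numbered samples did not deviate together (correlations of -0.00113, -0.000658 and 0.0176 for Male with Female, -0.00487, -0.0399 and 0.0206 for KD with WT), so the replicate numbers were not taken to pair samples; with a replicate block, 13 members were higher and 25 lower in Male, and 3 higher and 31 lower in KD, where Junb was lost (adjusted p = 0.0811).

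Signs turned in 7 cases, and the cause was not tested. In Male against Female, Cd3g was at -0.0025 with no filter, -0.01 with all 12 samples in a fit and -0.0071 to 0.023 with a sample left out. With the length trend removed, alone or with the block, Rasgrp1 was at 0.011 and 0.011, Nfkb1 at 0.06 and 0.06, Pag1 at 0.13 and 0.13, and Ubash3a at 0.07 and 0.069. In KD against WT, Nfkb2 was at -0.032 and -0.031 in those fits and at -0.017 to 0.038 with a sample left out, and Fos was at 0.0034 with upper-quartile factors and -0.17 to 0.13 with a sample left out. The lowest WT and KD samples held 79 and 73 counts of Fos.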
